A study of Saccharomyces cerevisiae with 151 samples.

Results

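The comparison described here sets 3 arrays of the yeast strain gat1gcn4, taken 30 min after 3-aminotriazole (3AT) was added, against 3 arrays of the same strain taken at 10 min. These 6 arrays were chosen by their labels from the 151 single-colour Affymetrix yeast arrays of the series. The strain is a double deletion of GAT1 and GCN4 in BY4741, a haploid MATa laboratory strain of Saccharomyces cerevisiae that also lacks working copies of HIS3, LEU2, MET17 and URA3. The series followed WT BY4741 and deletion strains over time after 3AT, and 3 of them serve as references here: gcn4, gat1 and WT, each with 3 arrays at 30 min and 3 at 10 min. Per the labels, cultures in synthetic complete medium at 28 °C reached an OD600 of 0.5 before sampling began. They then received 3AT to 100 mM, and 200 mL were harvested at each time from 1.4 litres for the strains followed at 6 times, as gat1gcn4 was. The 3 references were also sampled at 90 and 120 min, and the labels give a larger culture volume for strains followed that long. All groups share the labelled background, the medium and the drug, though URA3 read differently in gat1gcn4, as given below. The p-values rest on the spread within groups pooled over all strains with replicates, not on that of the 6 arrays alone. Nothing in the labels says that arrays of one group came from separate cultures, so this pooled spread may be technical.

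Gcn4 is the activator of general amino acid control. When uncharged tRNA builds up, its mRNA is translated more and it switches on genes of amino acid, purine and vitamin synthesis. Gat1 is a GATA factor that activates permeases and catabolic enzymes for poor nitrogen sources when preferred ones are scarce. 3AT inhibits the HIS3 enzyme of histidine synthesis and is widely used to provoke histidine starvation. Since BY4741 carries a partial HIS3 deletion and the medium was complete, whether these cells starved was not tested. The comparison asks which transcripts still moved between 10 and 30 min in cells without either activator.

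Signals below are MAS5 intensities rescaled so that each array has a 2% trimmed mean of 500. The trimmed means as deposited were 57.4 to 78.0 on the 30 min arrays and 35.3 to 61.5 on the 10 min arrays, so the 10 min arrays were dimmer before rescaling. Changes are differences of log2(signal + 16), 30 min minus 10 min, a scale on which low signals show smaller changes than they had. They are given ± SE of the limma fit without the replicate block described below, unless marked as block SE. Of the deleted genes, GCN4 read 26.6, 15.02 and 12.9 at 30 min, against 27.6, 34.9 and 434 at 10 min. Over all 16 gat1gcn4 arrays its median was 27.1, with medians of 258 in gcn4 and 6734 in WT. The highest GCN4 reading in gcn4, which is labelled as lacking it, was 2285. GAT1 read 17.4, 8.71 and 6.98 at 30 min, against 28.0, 5.09 and 35.2 at 10 min, and its median over the strain was 7.25, with a WT median of 138. The GCN4 reading of 434 was on the array of replicate 3 at 10 min, which stood above the other 5 arrays.

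Replicate 3 stood apart in other respects, and this touches most results below. At 10 min its array correlated with replicates 1 and 2 at r = 0.93 and 0.91 over all genes tested, while replicates 1 and 2 correlated at r = 0.97. At 30 min the values were 0.95 and 0.94, with 0.98 between replicates 1 and 2. URA3, a uracil synthesis gene that BY4741 lacks, read 102, 43.4 and 230 at 30 min, against 68.2, 54.5 and 736 at 10 min, where the median over WT arrays was 3.96. URA3 was thus highest in replicate 3 at both times. It was also above the other strains on every gat1gcn4 array: the 16 arrays lay between 43.4 and 1149, while the highest readings were 10.4 in gcn4, 17.1 in gat1 and 22.6 in WT. The strain therefore differed from its references at a gene that the background is said to lack, and the part of this in the results was not tested. Mating-type markers were checked against the MATa background. The 15 tested MATa mating genes summed to between 25017 and 54148 at 30 min and between 27199 and 60738 at 10 min, and the lowest sum at both times was that of replicate 3. MFA1 and MFA2 made up most of this sum on every array, while ASG7 of the same list read between 48.3 and 164. The 11 tested markers of alpha cells and diploids summed to between 348 and 380 at 30 min and between 332 and 518 at 10 min. STE3, the receptor that alpha cells carry, did not exceed 36.7 on any of the 6 arrays. Other markers of that list read higher. SAG1 read 49.8, 78.4 and 92.1 at 30 min, against 83.5, 77.0 and 89.1 at 10 min, and the highest reading of NDT80 was 127.

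Few genes passed the test between 10 and 30 min. With limma across all genes, Benjamini-Hochberg adjustment and a threshold of 0.05, 1 of 5611 genes rose (0.0178%) and 5 fell (0.0891%). The gene that rose was SNZ1, of vitamin B6 synthesis. Those that fell were the amino acid permease gene AGP1, YGR035C, SPO73, MRX3 and AAC1. Arrays that share a replicate number deviated together (r = 0.44, 0.25 and 0.38 between 30 and 10 min, against 0.12 or less between different numbers), so the replicate number was also used as a block. With the block, 6 genes rose (0.107%) and 12 fell (0.214%). The same block fitted over the 16 gat1gcn4 arrays alone called 0 higher and 1 lower. Without the block, fits of the gat1gcn4 arrays or of the 6 arrays alone called 0 higher and 0 lower. The calls below, with or without the block, thus rest on a spread estimated over all strains. All 6 genes called without the block were among these 18, and in 18 of 18 the change had the same sign in 3 of 3 pairs. The block favours genes whose pairs agree, so this agreement describes the choice and is not a separate result. For 15 of the 18 the arrays of the 2 times did not overlap, and over all genes tested this held for 172 higher (3.07%) and 378 lower (6.74%), together 9.8%. At an unadjusted p of 0.05 the fit without the block passed 312 genes (5.56%). Whether called or not, the change was positive in 2339 of the 5611 genes and negative in 3272, the background for the sign counts below. The count of 6 fell to 0 when replicate 1 at 10 min, replicate 2 at 30 min or replicate 3 at 30 min was left out. It fell to 1, AGP1, without replicate 2 at 10 min. Without any of the strain's replicate 3 arrays, which was tried after the data were seen, 3 genes were called, all lower, and MRX3 was the one in common with the 6. With the array medians set equal instead of the trimmed means, the split was 3 higher and 4 lower.

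**Figure D1:**
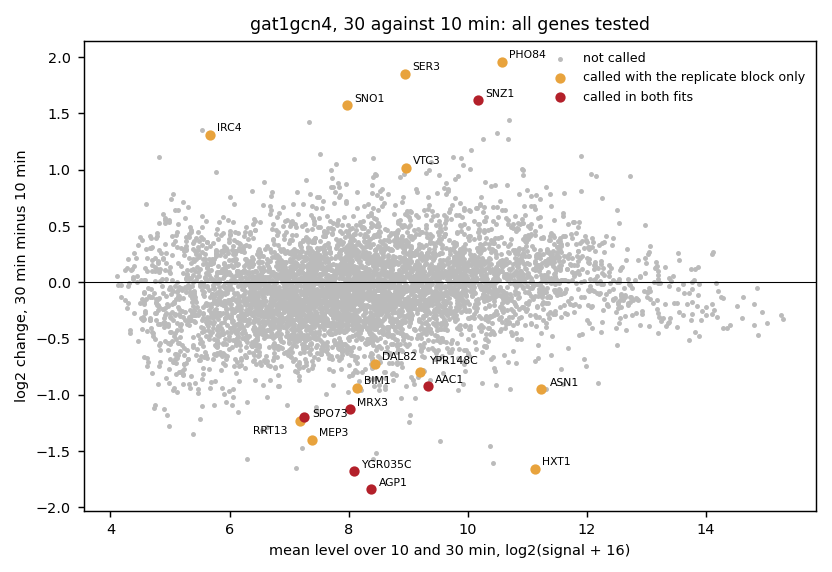
Change of each of the 5611 genes tested between 10 and 30 min in gat1gcn4 (vertical axis, log2, 30 min minus 10 min) against its mean level over both times (horizontal axis, log2). Red points are the 6 genes called in both fits and orange points the 12 called with the replicate block only; the median over all genes is -0.07.

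SNZ1 and SNO1 were the clearest pair among the genes that rose. SNZ1 encodes the pyridoxal phosphate synthase subunit and SNO1 its glutaminase partner, and the annotation places them as neighbours. SNZ1 read 1404, 1649 and 3119 at 30 min, against 580, 709 and 579 at 10 min, a change of 1.62 ± 0.38 (adjusted p = 0.048, and 0.013 with the block). Every 30 min array lay above every 10 min array, and replicate 3 at 30 min was the highest. SNO1 read 196, 290 and 883 at 30 min and 82.6, 124 and 144.9 at 10 min. Its change of 1.57 ± 0.41 passed with the block (adjusted p = 0.020) and not without it (0.12), and again the groups did not overlap. Without the strain's replicate 3 arrays the changes were 1.23 and 1.12, and neither passed with or without the block.

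The phosphate genes PHO84 and VTC3 rose with the block. PHO84, the high-affinity phosphate transporter of the plasma membrane, read 2191, 3084 and 2933 at 30 min, against 744, 1446 and 295 at 10 min, a change of 1.96 ± 0.59 (adjusted p = 0.0075 with the block and 0.32 without). VTC3, a subunit of the vacuolar complex that makes polyphosphate, read 643, 789 and 585 at 30 min and 396, 470 and 177 at 10 min, a change of 1.02 ± 0.26 (adjusted p = 0.0075 with the block and 0.089 without). In both genes the groups did not overlap and replicate 3 had the lowest reading at 10 min. Without replicate 3 the changes were 1.31 and 0.70 and did not pass with or without the block. Of the 13 tested genes of the phosphate regulon, 9 had a positive change and the median was 0.37, with 2 called with the block. PHO89, a sodium-phosphate cotransporter, changed by 1.44 ± 0.63 and VTC4, the catalytic subunit of the same complex as VTC3, by 0.96 ± 0.42, and neither passed in either fit.

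SER3, which encodes the first enzyme of serine synthesis from glycolysis, also rose with the block. It read 864, 1077 and 806 at 30 min, against 220, 188 and 333 at 10 min. The groups were far apart, with a change of 1.85 ± 0.60 (adjusted p = 0.015 with the block and 0.43 without). It kept its call with the block when replicate 3 was left out (2.16, adjusted p = 0.019). IRC4 was called higher with the block (1.31 ± 0.33, adjusted p = 0.029), but all 3 of its 10 min readings, 18.2, 21.1 and 9.66, were below the floor of their arrays, with 71.0, 55.1 and 64.4 at 30 min. The largest remaining positive changes without overlap were not called in either fit. They were those of BOP2 (1.43), SPG4 (1.33), REE1 (1.27), DLD3 (1.27), a D-2-hydroxyglutarate transhydrogenase under retrograde control, and CAB2 (1.18), of coenzyme A synthesis.

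**Figure D2:**
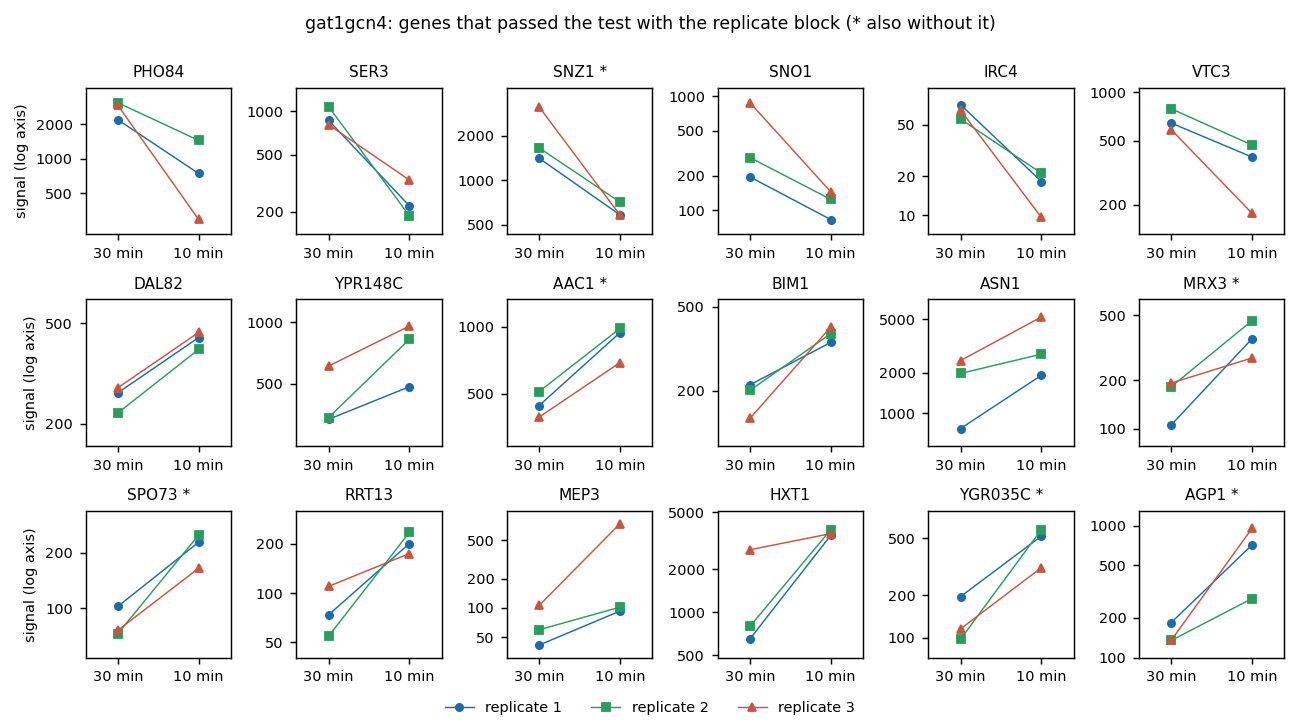
Rescaled signal (log axis) of the 18 genes called with the replicate block, 30 min at the left and 10 min at the right of each panel, with lines joining arrays of one replicate number; an asterisk marks the 6 called without the block too. Every line of a panel slopes the same way, which the choice of genes with the block favours. In YPR148C, ASN1 and MEP3 the replicates lie far enough apart for the 2 times to overlap.

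AGP1 had the largest fall. It encodes a broad amino acid permease that is induced by extracellular amino acids and is also under nitrogen catabolite repression. It read 184, 135 and 136 at 30 min, against 714, 280 and 953 at 10 min, a change of -1.84 ± 0.40 (adjusted p = 0.042, and 0.0075 with the block). The groups did not overlap, and the lowest 10 min array was replicate 2. Without replicate 3 its change was -1.42 and did not pass. Another permease gene, MEP3, which takes up ammonium, read 41.4, 59.6 and 106 at 30 min, against 92.8, 102 and 740 at 10 min. Its change of -1.40 ± 0.44 passed with the block (adjusted p = 0.016) and not without (0.36), and the reading of 740 belongs to replicate 3. Without replicate 3 it changed by -0.78 and was not called.

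Of the 12 tested nitrogen-repressed permeases, 11 had a negative change, with a median of -0.67. AGP1 was called without the block, and AGP1 and MEP3 with it. GAP1, the general amino acid permease, read 217, 259 and 81.6 at 30 min, against 606, 965 and 222 at 10 min, and its change of -1.51 ± 0.61 did not pass. MEP2, the high-affinity ammonium permease, changed by -1.09 ± 0.48 and did not pass. The 11 genes for breakdown of nitrogen sources had a median of -0.11 and 0 calls with or without the block, and the change furthest from 0 was that of CAR1, arginase (-0.95 ± 0.36). Among 7 nitrogen regulators the median was 0.05, with -0.42, -0.29 and 0.55 in the 3 pairs. DAL82, an activator of the allantoin degradation genes, was called lower with the block. It read 265, 221 and 278 at 30 min, against 438, 394 and 459 at 10 min, a change of -0.73 ± 0.18 (adjusted p = 0.013 with the block and 0.071 without). Its 3 pairs changed by -0.69, -0.79 and -0.69. Without replicate 3 its adjusted p with the block was 0.075.

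AAC1 and MRX3 encode mitochondrial proteins, and both fell. AAC1, a minor ADP/ATP carrier of the inner membrane, read 443, 512 and 393 at 30 min, against 943, 985 and 691 at 10 min, a change of -0.93 ± 0.22 (adjusted p = 0.04995, and 0.0075 with the block). MRX3, a protein found with the mitochondrial expression machinery, read 106, 182 and 192 at 30 min, against 360, 465 and 273 at 10 min, a change of -1.13 ± 0.26 (adjusted p = 0.042). Without replicate 3 the change of MRX3 was -1.45 (adjusted p = 0.012) and it stayed called. AAC1 then changed by -0.99 and passed with the block only (adjusted p = 0.028). The 30 genes of the respiratory chain and ATP synthase had a median of -0.06 and 0 calls, and the 67 genes of mitochondrial ribosomal proteins a median of 0.10 and 0 calls, in both fits.

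SPO73, a gene of prospore membrane growth in sporulation, read 102, 73.0 and 76.0 at 30 min, against 228, 249 and 165 at 10 min, a change of -1.20 ± 0.26 (adjusted p = 0.042). YGR035C, of unknown function, read 195, 98.1 and 116 at 30 min and 520, 577 and 312 at 10 min, a change of -1.68 ± 0.38 (adjusted p = 0.042). In both genes the groups did not overlap. Without replicate 3 their adjusted p-values were 0.0504 and 0.084 without the block and 0.019 and 0.056 with it.

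HXT1 separated the replicates. It encodes the low-affinity glucose transporter used at high glucose, and read 649, 794 and 2725 at 30 min, against 3432, 3759 and 3532 at 10 min. Replicate 3 at 30 min was more than 3 times as high as replicates 1 and 2, though still below every 10 min array. The change was -1.66 ± 0.49 (adjusted p = 0.020 with the block and 0.31 without), and -2.30 without replicate 3, where it passed in both fits (adjusted p = 0.016 without the block). YKR075C, named here because its change differed from that in gat1, split in sign. It read 217, 233 and 2958 at 30 min and 1450, 1748 and 1369 at 10 min, so that replicates 1 and 2 were lower at 30 min and replicate 3 was higher. It was not called over all replicates (-1.46 ± 0.57) and was called without replicate 3 (-2.74, adjusted p = 0.0036). Of 12 tested genes of hexose transport and its sensors, 11 had a negative change, with a median of -0.27. The list medians were -0.78 and -1.04 in the pairs of replicates 1 and 2 and 0.41 in that of replicate 3, which moved the other way.

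ASN1, asparagine synthetase, read 767, 1972 and 2460 at 30 min and 1910, 2746 and 5197 at 10 min. The groups overlapped while each replicate was lower at 30 min, and the change of -0.95 ± 0.37 passed with the block only (adjusted p = 0.042). BIM1, which binds microtubule plus ends, YPR148C and RRT13 were also called lower with the block, with changes of -0.94, -0.79 and -1.23. Without replicate 3, RRT13 kept that call (adjusted p = 0.0066) and ASN1, BIM1 and YPR148C did not. The largest remaining negative changes without overlap, not called in either fit, were those of EEB1 (-1.65), an enzyme of medium-chain ester synthesis, OLE1 (-1.61), the fatty acid desaturase, and TPO4 (-1.57), a polyamine exporter. GCN4 itself met the same rule with -1.57, which rests on the 10 min reading of 434; without replicate 3 its change was -0.37.

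The other times of the strain place the interval within a course of 0 to 60 min. AGP1 was at 1153 and 1151 on the 2 arrays at 0 min, at 311, 267 and 213 at 20 min, and at 86.0, 76.6 and 222 at 60 min. Its 10 min arrays thus lay below those at 0 min, and those at 30 min lower again. SNZ1 stood at 462 and 538 at 0 min and at 1098, 1112 and 1610 at 20 min. At 60 min it read 3900 and 3841 in replicates 1 and 2 but 1209 in replicate 3, so replicate 3 was the highest at 20 and 30 min and the lowest at 60 min. PHO84 read 585 and 168 at 0 min, 2256, 2033 and 943 at 20 min. At 60 min it read 1422, 1145 and 2199, so its 2 highest readings were both at 30 min. EEB1 stood at 586 and 554 at 0 min, at 72.4, 64.1 and 49.7 at 30 min and at 73.8, 51.6 and 61.7 at 60 min. SPO73 and HXT1 gave no such order: HXT1 was at 1401 and 6251 at 0 min, the higher value being that of replicate 3.

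**Figure D3:**
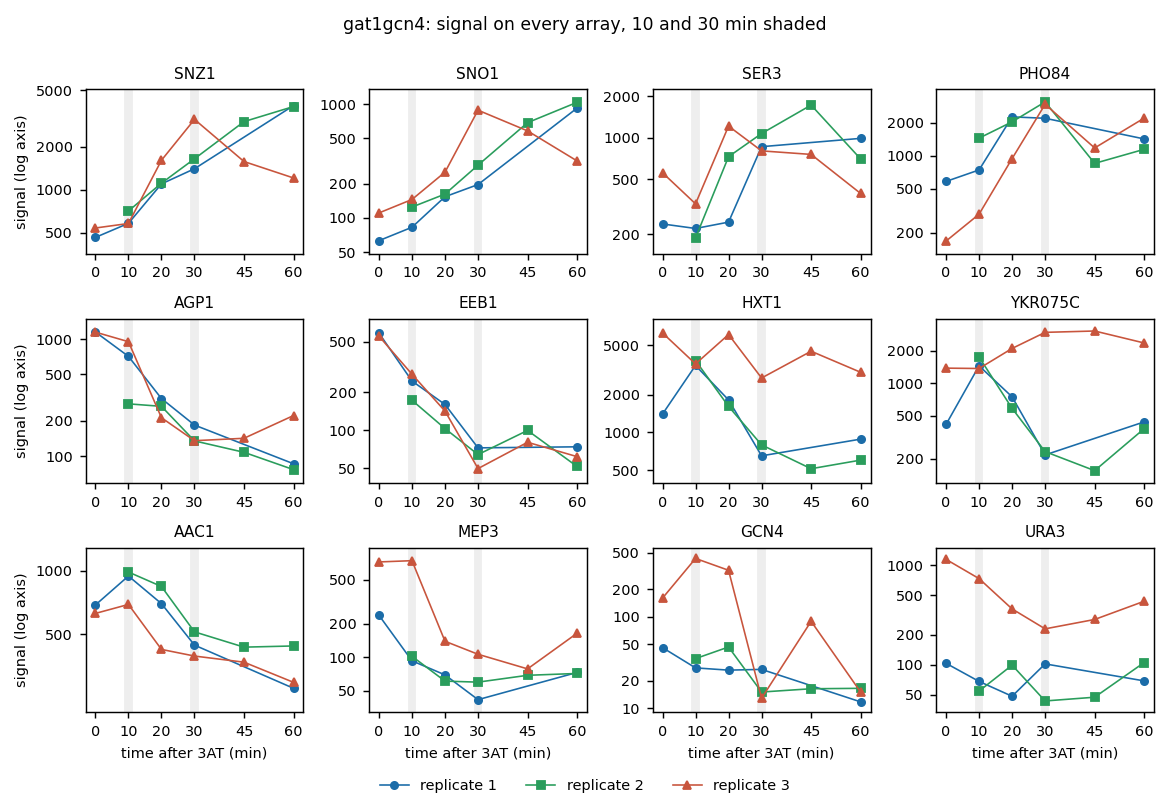
Rescaled signal (log axis) of 12 genes on all 16 gat1gcn4 arrays against minutes after 3AT, 1 line a replicate, with 10 and 30 min shaded. AGP1 and EEB1 descend in every replicate up to 30 min, while replicate 3 lies apart in HXT1, YKR075C, GCN4 and URA3.

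Splitting the interval at 20 min gave no calls without the block. From 10 to 20 min 0 genes passed by limma (490 at an unadjusted p of 0.05, 8.73%), and 44 passed with the block (0.784%), 5 higher and 39 lower. Without the strain's replicate 3 arrays the count of 44 fell to 1. From 20 to 30 min 0 passed (444 at an unadjusted p of 0.05, 7.91%), and 16 with the block (0.285%), 11 higher and 5 lower, and this count fell to 0 without replicate 3. The 20 min array of replicate 3 correlated with replicates 1 and 2 at r = 0.86 and 0.85, the lowest values among arrays of one time. Leaving out replicate 2 at 20 min, not replicate 3, raised the counts to 106 and 91. These intervals share the 20 min arrays, so their changes are not independent.

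Across gene lists most median changes were small, and each list had 0 to 2 calls in either fit. The vitamin B6 pair had the highest median, 1.59. The 32 tested proteasome genes followed with a median of 0.39, where 29 were positive and 0 were called in either fit. Their largest change was that of PUP2, a core subunit, which read 1427, 1795 and 954 at 30 min and 630, 678 and 630 at 10 min (1.04 ± 0.38, adjusted p = 0.60). The 26 tested iron regulon genes had a median of 0.23 and 0 calls, with medians of 0.0012 and 0.09 in the pairs of replicates 1 and 2 and 0.71 in that of replicate 3. TIS11, which promotes decay of mRNAs in iron scarcity, changed by 1.07 ± 0.60, and its 10 min reading in replicate 3 was 75.6, against 660 and 815 in replicates 1 and 2. For all genes the median was -0.07.

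Most lists of amino acid synthesis had medians near 0, the B6 pair above aside. The 7 tested arginine genes had a median of 0.06 and the 6 histidine genes one of 0.04, with 0 calls in either fit. HIS7, which joins the histidine and purine pathways, read 727, 754 and 753 at 30 min and 584, 477 and 379 at 10 min. Its groups did not overlap, and its change of 0.64 ± 0.38 did not pass. Medians were 0.06 for 9 lysine genes, 0.17 for 10 branched-chain genes and 0.13 for 14 aromatic genes, again with 0 calls. Serine, glycine and threonine genes had a median of 0.19, where 11 of 12 were positive and SER3 was the 1 called with the block. The 7 genes of glutamate, glutamine and asparagine synthesis had a median of -0.35, with -0.46, 0.26 and 0.09 in the 3 pairs, and ASN1 was the 1 called, lower, with the block.

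On the negative side, 15 of 17 tested multidrug transport genes had a negative change, as had 3272 of all 5611 genes, with a median of -0.51. In 7 of them the 30 min arrays lay below all 10 min arrays, as in 6.74% of all genes tested, and 0 were called in either fit. TPO4 read 185, 204 and 154 at 30 min, against 548, 710 and 461 at 10 min (-1.57 ± 0.46, adjusted p = 0.31). PDR12, the weak acid exporter, read 98.7, 114 and 93.5 at 30 min and 231, 222 and 284 at 10 min (-1.15 ± 0.36, adjusted p = 0.36). The 18 seripauperin and telomeric genes had a median of -0.40, and the 4 with the largest changes lie on probe sets marked as shared between genes, which may include signal of near-identical copies. The 32 general stress genes had a median of -0.27, with -0.64 and -0.57 in the pairs of replicates 1 and 2 and 0.24 in that of replicate 3. GPD1, of glycerol synthesis, changed by -1.41 ± 0.60 and HSP26, a small heat shock protein, by -0.89 ± 0.41, without a call. Cytosolic ribosomal protein genes had a median of -0.19, with 64 of 81 negative and 0 called, and ribosome biogenesis genes one of 0.05 over 52 genes.

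**Figure D4:**
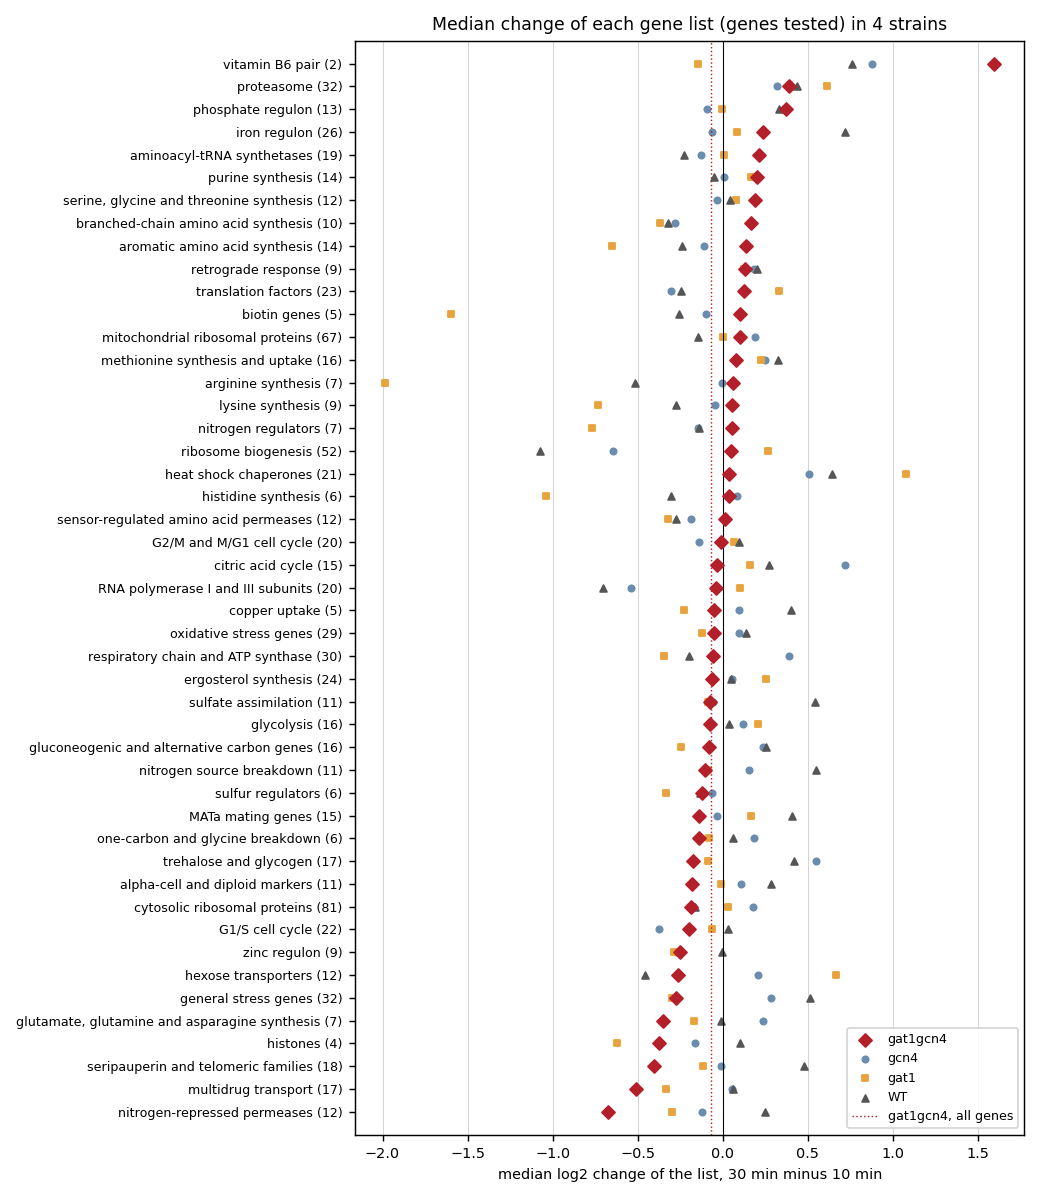
Median log2 change from 10 to 30 min of each gene list, with the number of genes tested, in gat1gcn4 (red diamonds), gcn4, gat1 and WT; the dotted line is the gat1gcn4 median of all genes. Arginine synthesis stands at 0.06 in gat1gcn4, -0.0019 in gcn4 and -1.98 in gat1. Ribosome biogenesis stands at 0.05 in gat1gcn4, -0.65 in gcn4 and -1.08 in WT.

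Against gcn4, which lacks GCN4 but keeps GAT1, the change in gat1gcn4 differed for 0 genes by limma without the block (337 at an unadjusted p of 0.05, 6.01%). The GCN4 probe set averaged 283 at 30 min and 283 at 10 min in gcn4, above the gat1gcn4 median of 27.1. The reason was not tested. In gcn4 itself 0 genes were called higher and 1 lower between 10 and 30 min (0.0178%). Same-numbered gcn4 arrays deviated together less clearly (r = 0.23, 0.21 and 0.55, against up to 0.22 between different numbers). Of the gcn4 arrays at 10 and 30 min, replicates 1 and 2 were deposited scaled and replicate 3 unscaled. The r of 0.55 was that of replicate 3, and pairing and deposited scale cannot be told apart in it. With a block for the replicate number within each strain, 15 genes differed (0.267%), 4 higher in gat1gcn4 and 11 lower. YKR075C differed by -3.44 ± 0.60 (block SE, adjusted p = 0.00069 with the block and 0.11 without), with changes of -1.46 in gat1gcn4 and 1.98 in gcn4. Its 3 gat1gcn4 pairs changed by -2.65, -2.83 and 1.10. SER3 differed by 2.46 ± 0.59 (block SE, adjusted p = 0.033 with the block and 0.52 without). It averaged 915 ± 143 at 30 min and 247 ± 75.9 at 10 min in gat1gcn4 (SD, n = 3 each). In gcn4 it averaged 370 ± 442 and 473 ± 484, so the SD exceeded the mean at both times. DAL82 differed by -0.98 ± 0.23 (block SE, adjusted p = 0.033 with the block and 0.15 without), with changes of -0.73 in gat1gcn4 and 0.25 in gcn4. GPP2, a glycerol-3-phosphate phosphatase, changed by 0.64 in gat1gcn4 and by -2.13 in gcn4. MPC3, a mitochondrial pyruvate carrier subunit, changed by -0.95 in gat1gcn4 and by 1.73 in gcn4. Without the replicate 3 arrays of gat1gcn4, 10 genes differed without the block.

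For SNZ1 and SNO1 the difference between these 2 strains did not pass. SNZ1 changed by 1.62 in gat1gcn4 and by 0.68 in gcn4, a difference of 0.94 ± 0.54 (SE; adjusted p = 0.83), and its mean at 10 min was 623 in gat1gcn4 and 648 in gcn4. SNO1 changed by 1.57 in gat1gcn4 and 1.07 in gcn4. AGP1 changed by -1.84 in gat1gcn4 and by -0.18 in gcn4, a difference of -1.65 that did not pass (adjusted p = 0.46). In gcn4 its mean was 853 at 0 min, 294 at 10 min and 257 at 30 min, so it was already low at 10 min. The means in gat1gcn4 were 1152 (2 arrays), 649 and 152. In gat1, AGP1 fell by 1.98 (adjusted p = 0.0003), and the difference from its change in gat1gcn4 was 0.14 ± 0.57 (SE), which did not pass.

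Against gat1, which lacks GAT1 but keeps GCN4, 46 genes differed (0.82%), and 376 passed at an unadjusted p of 0.05 (6.7%). The change was higher in gat1gcn4 for 42 genes (0.749%) and lower for 4 (0.0713%). Of the 42, 0 were called between 10 and 30 min in gat1gcn4 without the block and 40 were called lower in gat1. Their median change was 0.09 in gat1gcn4 and -2.46 in gat1. Their 10 min levels were lower in gat1gcn4 in 42 of 42, with a median of 221 in gat1gcn4 and 1459 in gat1. The 10 min levels enter the difference that chose these genes, so this is a description of the choice and not a separate result. All gat1gcn4 arrays were deposited unscaled and all gat1 and WT arrays scaled, so differences in level between these strains and a difference in deposited scale cannot be told apart. In gat1 as a whole 183 genes were called between 10 and 30 min (3.26%), 33 higher (0.588%) and 150 lower (2.67%).

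Genes of arginine synthesis were among the 42. ARG3, ornithine carbamoyltransferase, averaged 160 ± 27.3 at 30 min and 141 ± 60.5 at 10 min in gat1gcn4, and 469 ± 486 at 30 min and 2851 ± 116 at 10 min in gat1 (SD, n = 3 each). The difference of the changes was 3.24 ± 0.76 (SE; limma adjusted p = 0.011). ARG4, argininosuccinate lyase, and CPA1, the small subunit of carbamoyl phosphate synthase, differed by 2.33 and 1.87. ORT1, the mitochondrial ornithine carrier, differed by 2.30. Over the whole arginine list, 3 of 7 genes differed, and 0 of 7 were called in gat1gcn4 while 6 of 7 fell in gat1. In gcn4 the same list had a median of -0.0019 with 0 called, so its flatness was not particular to gat1gcn4. In the histidine list 1 of 6 differed from gat1, HIS7 (2.02). Of the 5 biotin genes tested, BIO3 and the biotin transporter VHT1 differed (2.35 and 3.11). ARG3 and the other members named here beyond the 5 largest in each direction were picked from the 46 after their values were seen.

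The largest differences among genes with a higher change in gat1gcn4 than in gat1 were those of ATG41, SER3, RTC2, ADH5 and ATR1. ATG41, an autophagy gene, averaged 735 ± 316 at 30 min and 628 ± 312 at 10 min in gat1gcn4, and 485 ± 371 and 5445 ± 929 in gat1 (SD, n = 3 each), a difference of 3.94 ± 0.65 (limma adjusted p = 0.00011). SER3 changed in opposite directions, by 1.85 in gat1gcn4 and by -1.98 in gat1, a difference of 3.83 ± 0.85 (adjusted p = 0.0061). RTC2, a vacuolar transporter of basic amino acids, changed by -0.02 in gat1gcn4 and by -3.50 in gat1. ADH5, an alcohol dehydrogenase, changed by 0.18 in gat1gcn4 and by -3.26 in gat1. ATR1, a multidrug efflux transporter, changed by 0.80 in gat1gcn4 and by -2.51 in gat1. In gcn4 the changes were 0.04 for ATG41, -0.61 for SER3, 0.98 for RTC2, -0.38 for ADH5 and -0.15 for ATR1. None of them was called there.

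The 4 genes with a lower change in gat1gcn4 than in gat1 were YKR075C (-3.32 ± 0.81), STI1 (-2.61 ± 0.69), HAP4 (-2.44 ± 0.48) and IPT1 (-1.99 ± 0.44). STI1, an Hsp90 cochaperone, averaged 2694 ± 1533 at 30 min and 2406 ± 1549 at 10 min in gat1gcn4, and 4838 ± 1343 and 647 ± 203 in gat1 (SD, n = 3 each). Of the 21 tested heat shock chaperones, 0 were called higher in gat1gcn4 and 8 in gat1, with medians of 0.04 in gat1gcn4 and 1.08 in gat1, and STI1 was the 1 whose difference passed. HAP4, the activating subunit of the Hap complex for respiration genes, changed by -0.46 in gat1gcn4 and by 1.98 in gat1. Leaving out single arrays moved the count of 46 to between 19 (without gat1 replicate 2 at 30 min) and 65 (without gat1 replicate 3 at 10 min). It was 22 without gat1 replicate 1 at either time, 21 without gat1 replicate 2 at 10 min and 28 without gat1gcn4 replicate 2 at 30 min. Without the gat1gcn4 replicate 3 arrays it was 49, of which 30 were among the 46.

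**Figure D5:**
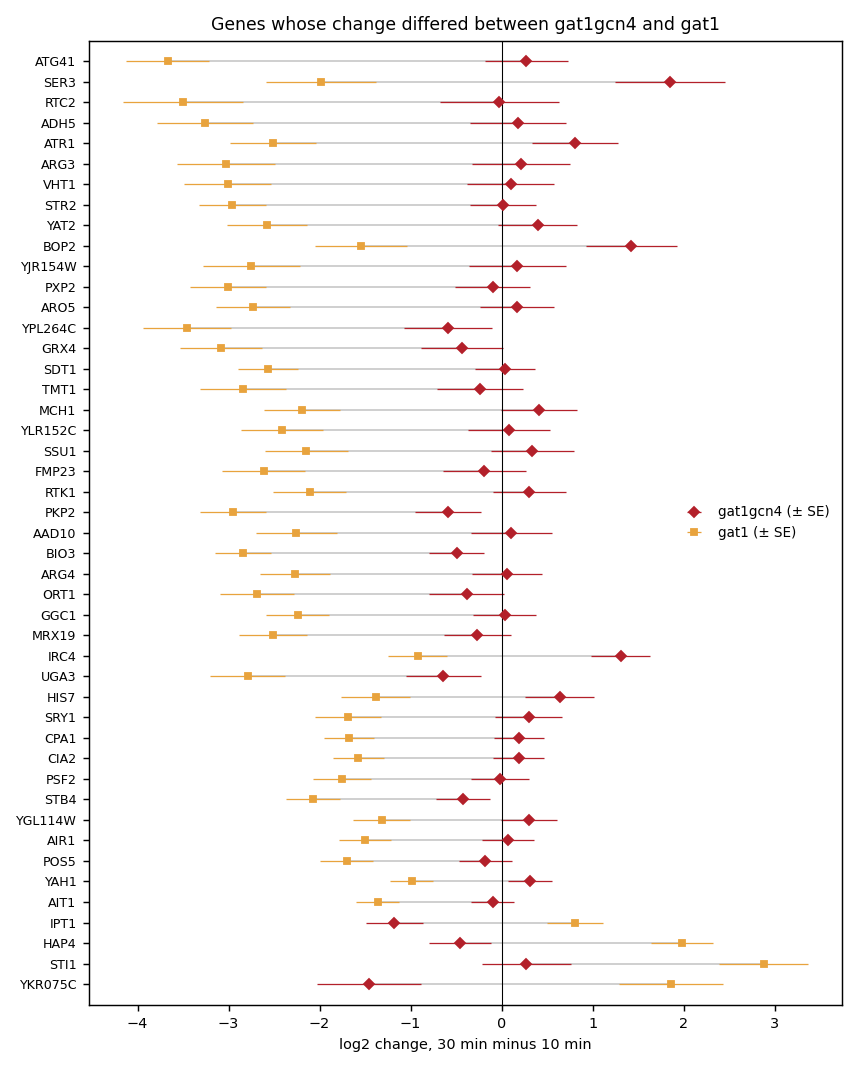
Log2 change from 10 to 30 min (± SE) of the 46 genes whose change differed between the strains, in gat1gcn4 (red diamonds) and in gat1 (orange squares), ordered by the difference. For the upper 42 genes the median is 0.09 in gat1gcn4 and -2.46 in gat1.

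Against WT, 11 genes differed (0.196%), 4 with a higher change in gat1gcn4 and 7 with a lower one. WT itself had 248 calls between 10 and 30 min (4.42%), 72 higher (1.28%) and 176 lower (3.14%). The 4 were HGH1 (2.54 ± 0.58), RRP36 (2.22 ± 0.53), LCP5 (1.95 ± 0.45) and BUD20 (1.94 ± 0.38). RRP36 and LCP5 act in processing of the small subunit rRNA and BUD20 in export of the large ribosomal subunit. BUD20 averaged 3330 ± 890 at 30 min and 2743 ± 645 at 10 min in gat1gcn4, and 940 ± 140 and 3015 ± 173 in WT (SD, n = 3 each). Of these, 0 were called in gat1gcn4 and all 4 fell in WT. In the ribosome biogenesis list 0 of 52 genes were called in gat1gcn4 (median 0.05) and 26 fell in WT (median -1.08), yet 0 of the 52 differed between the strains without the block. With the block, 111 of all genes tested differed (1.98%), 41 higher in gat1gcn4 (0.731%) and 70 lower (1.25%). Of the 52, 6 were among the 41. Same-numbered WT arrays correlated at r = 0.18, 0.0017 and 0.17, against up to 0.10 between different numbers, so their pairing is uncertain.

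Among the 7 with a lower change than in WT, TSA2, a peroxiredoxin, differed most (-2.65 ± 0.64). It averaged 99.1 ± 19.8 at 30 min and 131 ± 24.7 at 10 min in gat1gcn4, and 558 ± 181 and 98.3 ± 21.4 in WT (SD, n = 3 each). DIN7, a mitochondrial nuclease (-2.11), PDL32 (-2.09), PAU10 (-1.94) and HAL9, a transcription factor of salt tolerance (-1.72), followed. PAU10 lies on a probe set marked as shared between genes. Without WT replicate 2 at 30 min 1 of the 11 was still called, BUD20. Counts of 3 to 5 came from leaving out WT replicates 1, 2 or 3 at 10 min, gat1gcn4 replicates 1 or 2 at 10 min, or gat1gcn4 replicate 2 at 30 min. Leaving out WT replicate 1 at 30 min gave 25, gat1gcn4 replicate 3 at 30 min 31, WT replicate 3 at 30 min 162, and all gat1gcn4 replicate 3 arrays 24.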

How the data were processed

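The deposited table holds 1 linear intensity per probe set and array, which the authors computed with MAS5, per the submitters' processing notes; MAS5's version and the scanner software are not given in the sources used here. Of 9335 probe sets, 6504 name 1 gene, 328 several and 2503 none in the platform annotation. In genes with several probe sets (315) the brightest not marked as cross-hybridising was used. Arrays were rescaled to a 2% trimmed mean of 500. A gene was kept if above its array's 20th percentile in at least 2 of 3 arrays (1 of 2) of a group: 5611 of 5656 genes, of which 210 are on shared probe sets. All 145 arrays of the 7 strains with replicates entered 1 fit of log2(signal + 16) with limma 3.58.1 in R 4.3.3 (eBayes with an intensity trend, 95 residual and 9.11 prior degrees of freedom, two-sided, Benjamini-Hochberg over all genes tested, called at 0.05). The median SE was 0.336; the number of arrays limits the precision. On data simulated for gat1gcn4 at 30 against 10 min over 5611 genes, 56% of changes of log2 1, 96% of 2, 98% of 3 and 100% of 4 were recovered, with 17 false calls. These shares apply to the simulated settings only. In the data, PHO84 (1.96) and SER3 (1.85) did not pass without the block (limma adjusted p = 0.32 and 0.43). A change near log2 2 thus did not assure a call here.

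The replicate number within strain was used as a block. It was taken to pair the samples of a strain where every same-numbered pair of arrays at 30 and 10 min correlated above 0.1 after group means were removed. By this rule it paired gat1gcn4 and gcn4 and not gat1 and WT. Named genes are the deleted ones, the 15 largest rises and falls among called genes without overlap on probe sets of 1 gene (filled up to 10 with uncalled ones), up to 5 in each direction of each strain difference, and up to 4 members of each list. Genes called with the block alone, and others, were named after their values were seen. The 47 lists and the comparison were chosen with earlier results of these data known. Alternatives were the scaling, pseudocount, filter, probe set rule, arrays in the fit, weights, the block and leaving out arrays. Promoter sequences were not used here.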

Additional observations from a re-analysis of the deposited data

Results flagged for a closer look

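The following changes between 10 and 30 min differed between gat1gcn4 and another strain by limma's test of the difference itself. They are the named genes of the strain comparisons, and no explanation was weighed. Against gat1 the difference, gat1gcn4 minus gat1 on the log2 scale, was 3.94 for ATG41, 3.83 for SER3, 3.48 for RTC2, 3.44 for ADH5 and 3.31 for ATR1. It was -3.32 for YKR075C, -2.61 for STI1, -2.44 for HAP4 and -1.99 for IPT1. Against WT the difference, gat1gcn4 minus WT, was 2.54 for HGH1, 2.22 for RRP36, 1.95 for LCP5 and 1.94 for BUD20. It was -2.65 for TSA2, -2.11 for DIN7, -2.09 for PDL32, -1.94 for PAU10 and -1.72 for HAL9. In YKR075C replicate 3 of gat1gcn4 changed in the direction opposite to replicates 1 and 2.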

How the results depend on the processing

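The counts of genes higher and lower at 30 min (1 and 5) were small and moved with most settings, and the cause was not tested. They were 0 and 0 with the deposited values without rescaling, with a pseudocount of 1, and in fits of the gat1gcn4 arrays, of the 6 arrays or of the double deletions alone, which share fewer arrays. Median centring gave 3 and 4, quantile normalization 2 and 1, a pseudocount of 64 1 and 9, and array quality weights 68 and 172. The replicate block gave 6 and 12 over all arrays and 0 and 1 over the gat1gcn4 arrays. Leaving out single arrays gave 0 to 2 and 0 to 4. Without all gat1gcn4 replicate 3 arrays the counts were 0 and 3, and 2 and 10 with the block; these settings were added after seeing the data. Differences from gcn4 (0) numbered 3 with quantile normalization, 15 with the block, 165 with weights, 10 without replicate 3 and 41 with the block besides, and 0 to 6 without single arrays. Differences from gat1 (46) numbered 0 with deposited values, 92 with the block, 419 with weights, 87 with the block and without replicate 3, and 19 to 65 without single arrays. Differences from WT (11) numbered 0 with deposited values, 6 with quantile normalization, 111 with the block, 472 with weights, 24 without replicate 3, 155 with the block besides, and 1 to 162 without single arrays. In gat1 and WT not every same-numbered pair of arrays met the rule for pairing, so the block is less well founded there. Between 20 and 10 min (0) the counts were 4 with quantile normalization or with the mean of all probe sets, 6 with a pseudocount of 1, 44 with the block, 1 with the block and without replicate 3, 86 with weights and 0 to 106 without single arrays. Between 30 and 20 min (0) they were 1 with a pseudocount of 64, 16 with the block, 37 with weights and 0 to 91 without single arrays. Across all alternatives of the 27 named genes' changes, 0 reversed, 477 stayed on the same side of the threshold, 76 lost their call and 39 gained one. The median change over all genes was -0.07, and 0.23 in the deposited values.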
